A study of Rattus norvegicus with 16 samples.

Results

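Of the 549 singly named genes on the array, 4 are described here, the sterol synthesis genes Cyp51 and Dhcr7 and the stearoyl-CoA desaturase genes Scd and Scd2. They were found by their gene symbols, which 10 of the 972 gene probe sets carried alone, 5 for Cyp51, 2 for Dhcr7, 1 for Scd and 2 for Scd2. A probe set is the group of probes on the chip that reports 1 transcript region. The genes were chosen by what they do, but with their mefloquine minus DMSO differences on these same arrays, and the effect of the array DMSO control 3 on them, already known. The treatment differences are therefore given as a description. RNA came from NG108 cells, which the labels call rat neuronal and which are known as a mouse neuroblastoma and rat glioma hybrid. For 2 hours, 8 samples received 0.25% DMSO and 8 received 4400 ng/ml mefloquine, an antimalarial drug. No other allele or agent is named for either group, and the labels used here do not say whether the mefloquine samples also held DMSO. Nothing in the labels places the 8 samples of a group in separate cultures, so the errors measure the spread between samples, which may be technical. The probes are for rat sequences, and how they read the mouse transcripts of a hybrid cell was not tested.

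Cholesterol is built from acetyl-CoA through squalene and lanosterol. Cyp51 encodes lanosterol demethylase, the cytochrome P450 enzyme that opens the stretch from lanosterol to cholesterol, and Dhcr7 encodes 7-dehydrocholesterol reductase, which acts at its end. Scd and Scd2 encode enzymes of the endoplasmic reticulum that place a double bond in stearoyl-CoA and palmitoyl-CoA, giving oleate and palmitoleate for membranes and stored lipid. Scd is the main form in rodent liver and fat and Scd2 the main form in rodent brain. Genes of both pathways are known targets of the SREBP transcription factors, which are released from the endoplasmic reticulum when its sterol falls and act together with NF-Y, which binds CCAAT, and Sp1, which binds GC boxes.

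Scd2 and Scd lie near each other on rat chromosome 1, with 1 annotated gene, Scd4, between them in the GRCr8 assembly. The 250 bases before the start of each are shown because these neighbours encode the same enzyme activity and are the pair of desaturases compared here. The sequences are from RefSeq, build GRCr8, 5′ to 3′ on the gene's strand, with matches to the searched motifs in capitals.
Scd2, chr1:253118127-253118376, plus strand: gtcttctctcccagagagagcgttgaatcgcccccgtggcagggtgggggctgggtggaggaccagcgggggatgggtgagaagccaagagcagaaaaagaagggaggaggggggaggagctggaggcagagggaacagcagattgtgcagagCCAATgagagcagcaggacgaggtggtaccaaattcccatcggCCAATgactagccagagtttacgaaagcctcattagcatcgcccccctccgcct
Scd, chr1:253231732-253231981, minus strand: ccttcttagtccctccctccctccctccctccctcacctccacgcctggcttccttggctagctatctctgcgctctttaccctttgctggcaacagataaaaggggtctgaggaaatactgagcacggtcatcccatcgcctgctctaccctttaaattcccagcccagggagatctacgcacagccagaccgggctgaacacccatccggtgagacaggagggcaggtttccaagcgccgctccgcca

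The capitals in the Scd2 window are 2 CCAAT boxes, 97 to 93 and 54 to 50 bases before the start. The Scd window held no match to any of the 5 motifs searched on both strands, which were CCAAT, the GC box GGGCGG, the sterol element core TCACNCCAC, the cyclic AMP element core TGACGT and the AP-1 element TGANTCA. In the same window Cyp51 had 1 GGGCGG on its minus strand, 127 to 122 bases before the start, and 1 TGACGT, 115 to 110 bases before it. Dhcr7 had 2 GGGCGG, 39 to 34 and 34 to 29 bases before the start, which overlap by their shared base. No other matches overlapped. None of the 4 genes had TCACNCCAC or TGANTCA in this window. Of 33469 rat promoter windows of this length, 34.0% held CCAAT, 30.5% GGGCGG, 0.974% TCACNCCAC, 6.95% TGACGT and 6.34% TGANTCA. A match is only a run of letters, and sites outside the window were not searched.

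The deposited values are intensities scaled for each array, some of them at or below 0, which are read here as no measurable signal. Differences are on the log2 scale after values below 426.5 intensity units, the floor, were raised to it. Testing required a value over the floor on 8 or more of the 16 arrays, which 8 of the 10 member probe sets met. The array DMSO control 3 stood apart before any comparison. Its beta-actin signal was 21.3 times stronger at the 3' than at the 5' end of the transcript, against 1.31 to 2.67 on the other arrays, and its median correlation with the others was 0.855, against 0.901 to 0.945. Its spike-in controls were also the strongest, at a mean of 15.44 on the log2 scale, followed by mefloquine 1 at 15.09 and mefloquine 2 at 14.88, while the other 13 arrays lay between 13.16 and 14.40. Of the 19 neuronal marker genes listed for a check of the label, none was named on the array, so the neuronal label could not be checked. Of the 13 genes in the glial list only Clu and Vim were named, and both were above the floor on all 16 arrays.

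Scd2, by its bright probe set M15114_g_at, had the member difference farthest from 0 relative to its error. On DMSO arrays its intensity had a lowest value of 3791, a median of 6373 and a highest of 7195. On mefloquine arrays it ran from 6076 through a median of 7742 to 10281. The highest DMSO value was exceeded on 7 of 8 mefloquine arrays, and only mefloquine 8, at 6076, lay among the DMSO values. The mean was 6046 ± 1123 in DMSO cells and 7948 ± 1240 in mefloquine cells (SD, n = 8 each). This is a log2 difference of 0.41 ± 0.14 (SE), or 1.32-fold, with a 95% interval from 1.08-fold to 1.63-fold. By size of p it stood 12th of the 545 probe sets tested, at an unadjusted limma p of 0.0102 and an adjusted p of 0.464, so it did not pass. A pattern in which at least 7 of 8 mefloquine arrays exceeded the highest DMSO array was met by 4 probe sets, 0.734% of those tested. This mark was set after the Scd2 value was seen. Scd2 met it by how it was set, so the share supports nothing about Scd2.

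Without DMSO control 3, whose Scd2 value of 5202 was the second lowest of its group, the log2 difference was 0.38, with a 95% interval from 0.08 to 0.68. It was 0.43 ± 0.16 (SE) within replicates 1 to 5 and 0.36 ± 0.27 within replicates 6 to 8, ranges of replicate numbers between which these arrays are known to differ. With any 1 array left out it stayed between 0.31 and 0.46. The lower of these came without DMSO control 8, the lowest DMSO array at 3791, and the higher without mefloquine 8. In such RNA from whole cultures, more RNA per cell and more cells of 1 kind cannot be told apart.

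The other Scd2 probe set, M15114_at, was dim and not tested. It was above the floor on only 2 arrays, mefloquine 1 at 692 and mefloquine 2 at 650, with DMSO control 3 next at 314. All other arrays were at 18.9 or below. The 3 highest arrays are the 3 with the strongest spike-in signal, and the part of that signal in these values was not tested. By this probe set Scd2 therefore gave no second measure of the difference.

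**Figure D1:**
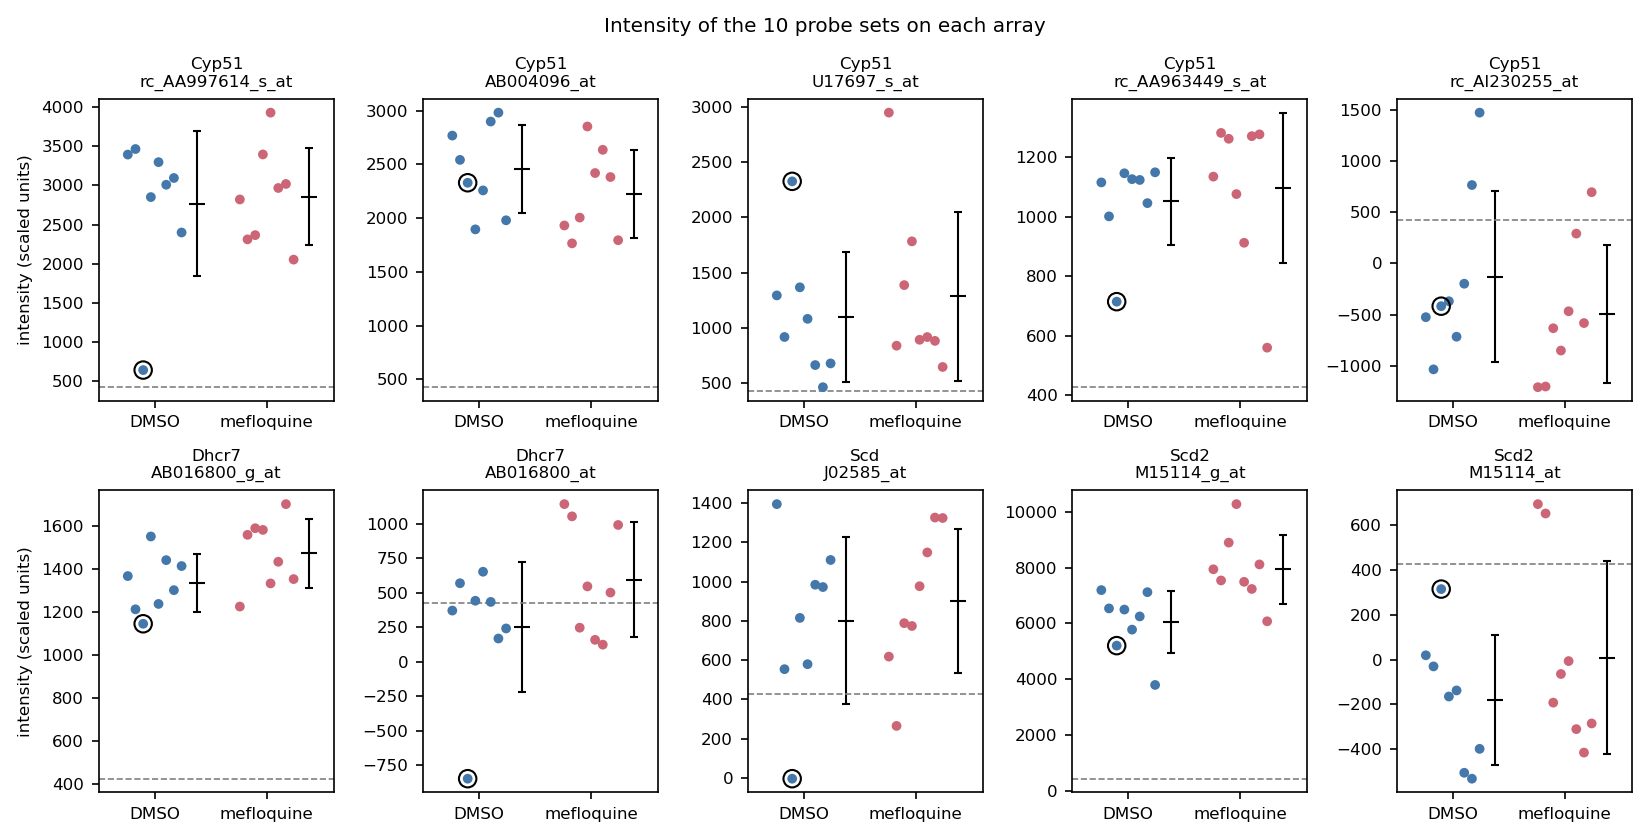
Intensity (linear scaled units, vertical axis, a separate scale in each panel) of the 10 probe sets on the 8 DMSO and 8 mefloquine arrays, 1 point per array in order of replicate number; the bar is the mean ± SD of the group, the dashed line the floor of 426.5 and the ring marks DMSO control 3. Scd2 by M15114_g_at has 7 of 8 mefloquine points above the highest DMSO point, while the ringed array lies far below the other DMSO points for Cyp51 rc_AA997614_s_at.

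Scd, the other desaturase, was measured by 1 probe set, J02585_at. Its intensity on DMSO arrays ran from -4.6 through a median of 893 to 1394, and on mefloquine arrays from 264 through 882 to 1326. The groups overlapped over nearly their whole range, and 0 of 8 mefloquine arrays exceeded the highest DMSO value. The value of -4.6 was on DMSO control 3, and mefloquine 2, at 264, was the only other array below the floor. The log2 difference was 0.12 ± 0.27 (SE), with a 95% interval from 0.73-fold to 1.61-fold, and it was -0.01 without DMSO control 3. The difference between Scd2 and Scd in their response was not tested.

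Dhcr7 was read by 2 probe sets. By AB016800_g_at its intensity on DMSO arrays had a lowest value of 1146, a median of 1335 and a highest of 1551, and on mefloquine arrays a lowest of 1226, a median of 1496 and a highest of 1702. This was the tightest of the member probe sets, with a spread within groups of 0.15 on the log2 scale, against a median of 0.40 over all probe sets tested. The highest DMSO value was exceeded on 4 mefloquine arrays, and the lowest value was that of DMSO control 3. The log2 difference was 0.14 ± 0.10 (SE), with a 95% interval from 0.95-fold to 1.28-fold, and it was 0.11 without DMSO control 3.

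The dimmer Dhcr7 probe set, AB016800_at, ran from -848 through a median of 403 to 653 on DMSO arrays and from 124.5 through 525 to 1144 on mefloquine arrays. It was above the floor on 4 DMSO and 5 mefloquine arrays only. The high values were mefloquine 1 at 1144, mefloquine 2 at 1055 and mefloquine 8 at 992.5, and the lowest of all was DMSO control 3. On the floored scale it differed by 0.43 ± 0.23 (log2, SE), with a 95% interval from 0.96-fold to 1.88-fold. Without the 3 arrays with the strongest spike-ins (DMSO control 3 and mefloquine 1 and 2) it was 0.14, and with array quality weights 0.22. Without mefloquine 1 alone it was 0.31. Both Dhcr7 probe sets were thus on the higher side with mefloquine, and neither passed the test.

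Cyp51 had 5 probe sets, of which 4 were tested, and they did not lie on 1 side. By rc_AA997614_s_at, the brightest, intensity on DMSO arrays ran from 645 through a median of 3051 to 3463, and on mefloquine arrays from 2053 through 2893 to 3927. The lowest value was on DMSO control 3, and the next DMSO array was at 2399. With that array the log2 difference was 0.16 ± 0.29 (SE), and without it -0.12 ± 0.14. The direction of this value thus turned when that 1 array was left out.

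By AB004096_at, Cyp51 ran from 1896 through a median of 2436 to 2982 on DMSO arrays and from 1765 through 2194 to 2853 on mefloquine arrays. Here DMSO control 3, at 2330, lay within its group. The log2 difference was -0.15 ± 0.14 (SE) on all arrays and -0.16 without DMSO control 3. Its 95% interval on all arrays ran from 0.74-fold to 1.10-fold.

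The Cyp51 probe set rc_AA963449_s_at ran from 714 through a median of 1120 to 1150 on DMSO arrays and from 560 through 1199 to 1282 on mefloquine arrays. The lowest values were again on DMSO control 3 and, with mefloquine, on mefloquine 8. Its log2 difference was 0.03 ± 0.17 (SE), and -0.05 without DMSO control 3. With mefloquine 8 left out instead it was 0.16, so that 1 low array in each group moved the value in opposite directions.

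By U17697_s_at, Cyp51 had its lowest, median and highest DMSO values at 465, 1000.45 and 2324 and its mefloquine values at 648, 906 and 2945. The highest array of each group was DMSO control 3 and mefloquine 1, both with strong spike-ins. The log2 difference was 0.22 ± 0.34 (SE), 0.40 without DMSO control 3, 0.02 without mefloquine 1 and 0.24 without these and mefloquine 2. The fifth Cyp51 probe set, rc_AI230255_at, was above the floor on 3 arrays only, DMSO controls 7 and 8 at 764 and 1470 and mefloquine 8 at 694, and was not tested. On the other 13 arrays it lay between -1208 and 290. On that probe set the few measurable values all came from replicates 7 and 8.

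Across the members, 0 of 8 had a Benjamini-Hochberg adjusted p under 0.05 in the limma fit (range 0.464 to 0.998), where 7 of the 545 probe sets (1.28%) did, 6 of them higher (1.10%) and 1 lower (0.183%) with mefloquine. At an unadjusted p under 0.05 there was 1 member, Scd2, where 23 probe sets (4.22%) were. Without DMSO control 3 again 0 of the 8 passed, where 1.10% of all did, and Scd2 alone was under the unadjusted mark. Of the 8 differences 7 were above 0 on all arrays, where 46.4% of the probe sets tested were, and 4 were without DMSO control 3. The share of all probe sets without that array was not counted, for this sign or for the unadjusted mark. The median of the 8 differences was 0.15 on all arrays and 0.05 without DMSO control 3, beside -0.01 and -0.05 over all probe sets tested. For all 8 the 95% interval on all arrays lay within 2-fold in both directions, as it did for 87.7% of the probe sets tested. Without DMSO control 3 the interval of Cyp51 U17697_s_at ran from -0.27 to 1.06 on the log2 scale, past 2-fold. Nothing is read from these counts about the members as a group, since probe sets of 1 gene share its transcript.

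**Figure D2:**
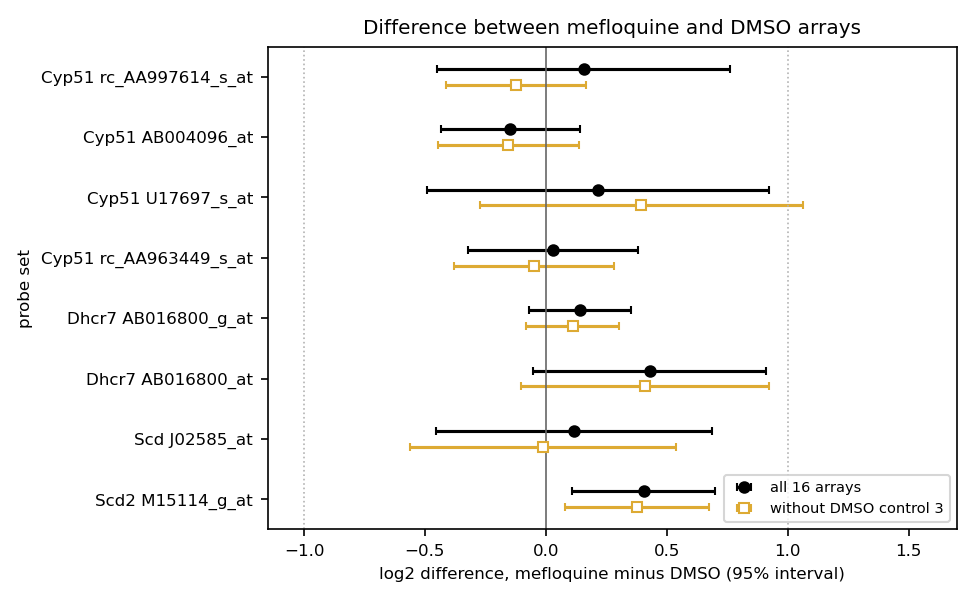
Log2 difference, mefloquine minus DMSO, with its 95% interval (horizontal axis; dotted lines at 2-fold) for the 8 tested probe sets, on all 16 arrays (filled circles) and without DMSO control 3 (open squares). The unadjusted interval of Scd2 lies above 0 in both, from 0.11 to 0.70 and from 0.08 to 0.68. Scd2 did not pass in either fit (limma adjusted p = 0.464 and 0.516) and was chosen with its difference known. The Cyp51 rc_AA997614_s_at value crosses from 0.16 to -0.12.

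Other genes of the lipid pathways came from lists of 98 genes for sterol synthesis, sterol sensing and uptake, sterol export and carriers, fatty acid synthesis, and fatty acid breakdown. Only 15 of them were named on this array and 8 were tested, each by its brightest probe set. None passed limma's test, either higher or lower, and 1 (Scd2) was under an unadjusted p of 0.05. Of the 22 sterol synthesis genes only Cyp51 and Dhcr7 were named on the array, and of the 17 genes for sterol sensing and uptake none was, so HMG-CoA reductase, the LDL receptor and the SREBPs were not analysed here. Probe sets with several symbols or none were not searched for them. Among the 26 genes of fatty acid synthesis, 4 were on the array and 3 were tested. Me1, the malic enzyme that supplies NADPH for fatty acid synthesis, was at 2231 ± 624 in DMSO cells and 2633 ± 214 in mefloquine cells by rc_AI171506_g_at (SD, n = 8 each). Its log2 difference was 0.31 ± 0.20 (SE), and 0.12 without DMSO control 3. The other Me1 probe set, rc_AI171506_at, was above the floor on 7 arrays and was not tested. Its mean was 410.5 in DMSO cells and 362.7 in mefloquine cells, both below the floor. Fasn, fatty acid synthase, was above the floor on 7 arrays and was not tested.

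The arrays of replicates 6 to 8 and those of replicates 1 to 5 were also compared, with treatment in the model. This contrast is another than the one the genes were chosen with, though the ranges themselves had been noticed on these arrays and the labels do not say what separates them. Of the 8 member probe sets 2 differed, where 68 of the 545 (12.5%) did. In all, 2.20% were higher and 10.3% lower in replicates 6 to 8, and the members were 1 of each. Scd was higher in replicates 6 to 8, with 1144 ± 156 (SD, n = 6) against 676 ± 381 (SD, n = 10), a log2 difference of 0.72 ± 0.22 (SE; limma adjusted p = 0.0459). All 6 arrays of replicates 6 to 8 lay between 972 and 1326, while the others ran from -4.6 to 1394, so the groups overlapped. The Scd difference had the same sign in each treatment, at 0.57 in DMSO arrays and 0.87 in mefloquine arrays, but passed in neither alone (limma adjusted p = 0.547 and 0.0863), and it was lost in 12 of the 16 fits with 1 array left out.

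Cyp51 by U17697_s_at was lower in replicates 6 to 8, at 710 ± 167 (SD, n = 6) against 1483 ± 686 (SD, n = 10). The log2 difference was -0.98 ± 0.26 (SE; limma adjusted p = 0.0189). The ranges overlapped only between 840 and 918. Within DMSO the difference was -1.16 and within mefloquine -0.80, and it passed in neither alone (limma adjusted p = 0.0865 and 0.287). The call was also lost without DMSO control 7 (limma adjusted p = 0.0565). The other 3 tested Cyp51 probe sets differed by 0.10, 0.06 and -0.04 and did not pass, so only U17697_s_at of the 4 had this shift. Scd2 differed by -0.20 ± 0.14 and the Dhcr7 probe sets by 0.07 ± 0.10 and -0.17 ± 0.24. A difference of the treatment effect between the ranges passed limma's test for 0 of 8 members and 0 of 545 probe sets. At an unadjusted p under 0.05 there were 0 members and 23 probe sets. The member estimate farthest from 0 was -0.40 ± 0.62 (log2, SE), for Cyp51 rc_AA997614_s_at, so differences of that size are not excluded.

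**Figure D3:**
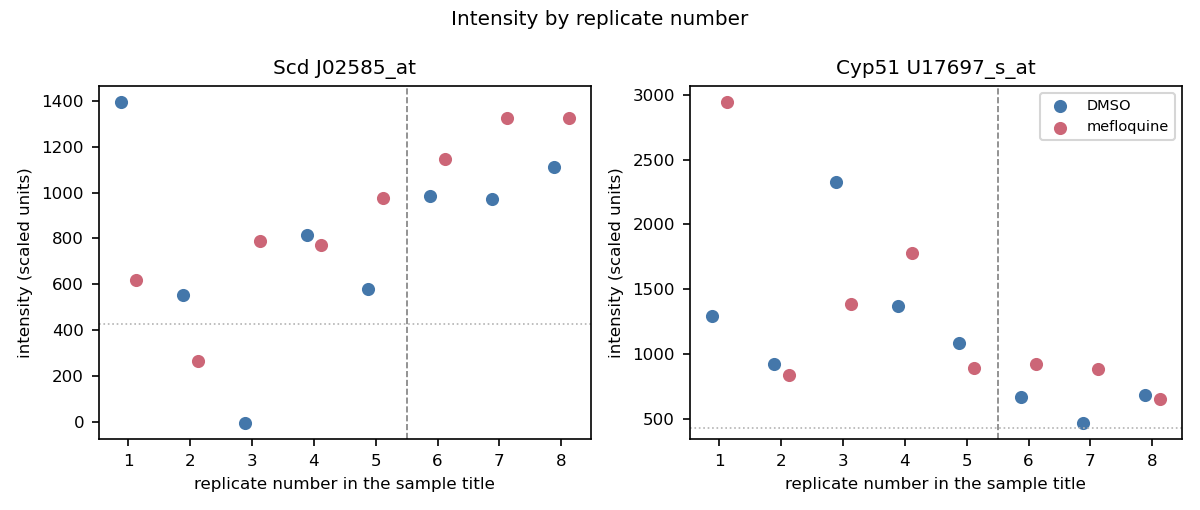
Intensity (linear scaled units) of Scd by J02585_at and of Cyp51 by U17697_s_at against the replicate number in the sample titles, 1 point per array, with the dashed line between replicates 5 and 6 and the dotted line at the floor. Scd lies between 972 and 1326 on all arrays of replicates 6 to 8, and Cyp51 between 465 and 918.

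Whether the members varied together from array to array was compared through all 28 pairs of the 8 tested probe sets. None of the 28 passed a permutation test of Pearson's r after Benjamini-Hochberg adjustment, and 2 had an unadjusted p under 0.05; by Spearman's rho 0 passed and 3 were under it. The values ran from -0.583 to 0.508. The 7 pairs within 1 gene, 6 for Cyp51 and 1 for Dhcr7, had a median r of 0.0229, and the 21 pairs between genes 0.174; these medians were not tested against each other. Without DMSO control 3 and mefloquine 1 and 2 these medians were 0.309 and -0.0819, and again no pair passed.

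The Dhcr7 probe sets had r = -0.123 and rho = -0.0399 over the 16 arrays (permutation p = 0.650 and 0.886, adjusted 0.792 and 0.993). Within replicates 1 to 5 r was -0.0738 and within replicates 6 to 8 -0.144. Without mefloquine 1 and 2, the 2 arrays farthest from the median of AB016800_at, it was -0.142. The 2 brightest Cyp51 probe sets, AB004096_at and rc_AA997614_s_at, had r = 0.288 and rho = 0.659 (permutation p = 0.320 and 0.00696, adjusted 0.616 and 0.106). Without DMSO control 3 their r was 0.725 (permutation p = 0.00236, adjusted 0.0661). With DMSO control 3 kept, r was 0.191 within replicates 1 to 5, and it was 0.928 within replicates 6 to 8. Without mefloquine 2 and 8, the arrays farthest from the median of AB004096_at, and with DMSO control 3 kept, it was 0.227. This pair was singled out after its values were seen, and neither adjusted p passed. The Cyp51 probe set rc_AA963449_s_at had r = 0.134 and rho = -0.282 with AB004096_at, and r = 0.490 and rho = -0.221 with rc_AA997614_s_at. The Cyp51 pairs with U17697_s_at had rho from -0.118 to 0.0118.

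**Figure D4:**
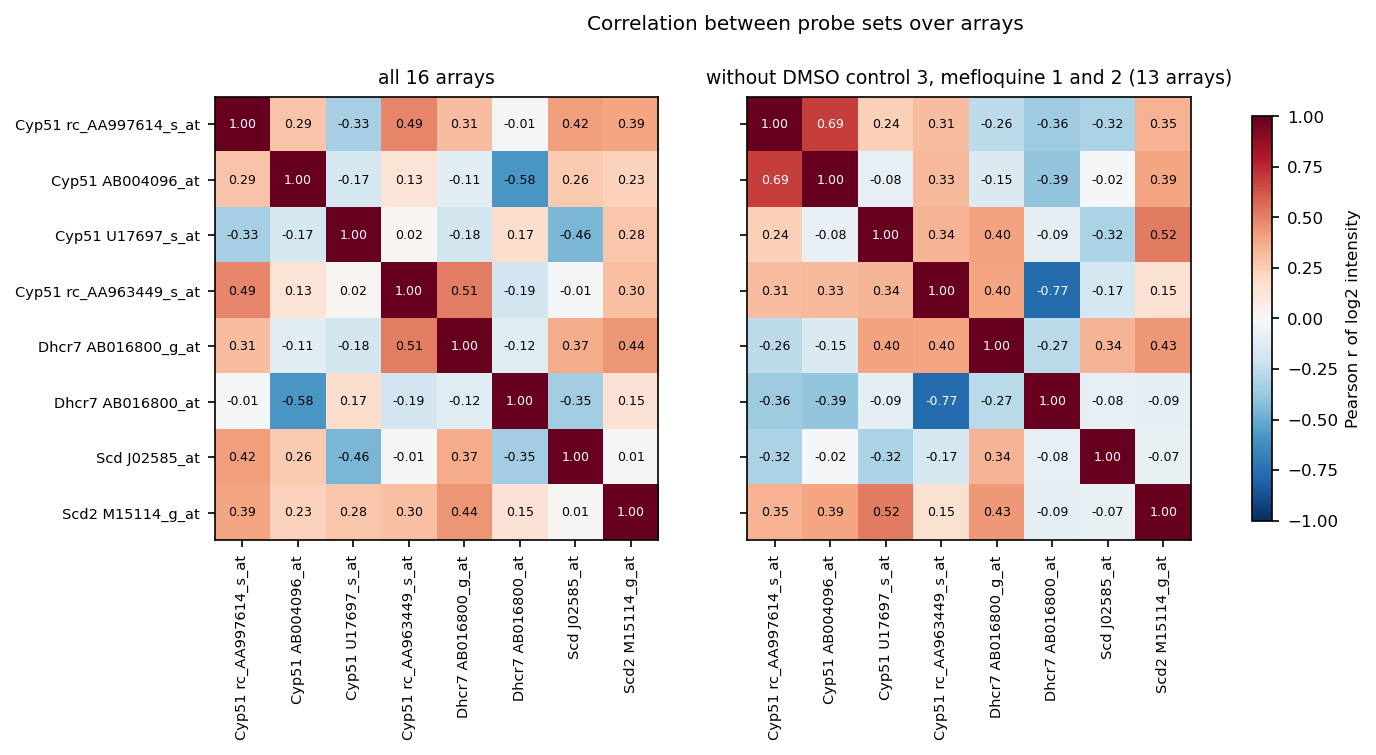
Pearson r of log2 intensity between the 8 tested probe sets over all 16 arrays (left) and over the 13 arrays without DMSO control 3 and mefloquine 1 and 2 (right); red is positive and blue negative. The Cyp51 pair AB004096_at and rc_AA997614_s_at goes from 0.29 to 0.69, and most other squares of 1 gene stay pale.

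For each member's brightest probe set, the 3 singly named genes with the most similar log2 values over the arrays were taken from 341 other genes. These r values are the highest of many, so they carry no p and describe only these arrays, which share a scaling and 2 treatments. For Scd2 the most similar gene was Jun, which forms AP-1 with Fos proteins, at r = 0.896 by rc_AI175959_at, followed by its relative Junb at 0.775 and by Nfkbia, the NF-kappa-B inhibitor, at 0.724. Over all 341 genes the median r with Scd2 was 0.0455, and the 95th percentile 0.465.

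The likeness of Scd2 and Jun was also present within each treatment. Within the 8 DMSO arrays r was 0.876 and within the 8 mefloquine arrays 0.901. Spearman's rho in these groups was 0.786 and 0.738. Within replicates 1 to 5 r was 0.942 and within replicates 6 to 8 it was 0.896. Without the 2 arrays farthest from the Scd2 median, DMSO control 8 and mefloquine 4, it was 0.881. Leaving out any 1 array gave 0.866 to 0.910, and median scaling or quantile normalization gave 0.854 and 0.882. Since Jun was picked as the highest of 341 genes on these same arrays, these values do not test the likeness.

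On single arrays, both genes were lowest in the DMSO group on DMSO controls 3 and 8, with Jun at 760 and 790.5 and Scd2 at 5202 and 3791. Both were highest in the DMSO group on DMSO control 1, with Jun at 2530.5 and Scd2 at 7195. With mefloquine, both were lowest on mefloquine 8, at 2576 and 6076, and highest on mefloquine 4, at 11126 and 10281. The 2 dimmer Jun probe sets were less alike with Scd2, at 0.717 for rc_AA945867_at and 0.689 for X17163cds_s_at, and within DMSO arrays at 0.365 and 0.163. The latter was above the floor on 10 of 16 arrays. Nfkbia by X63594cds_at was at 0.127 within DMSO arrays and 0.787 within mefloquine arrays, and Ddit3 at -0.00492 and 0.852. Fos, the usual partner of Jun, was at -0.176 over all arrays. That DMSO controls 3 and 8 and mefloquine 8 also have high 3' over 5' ratios of beta-actin, at 21.3, 2.67 and 2.58, moves with this pattern, and its part was not tested. Without DMSO control 3 and mefloquine 1 and 2 the Scd2 and Jun value was 0.902.

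**Figure D5:**
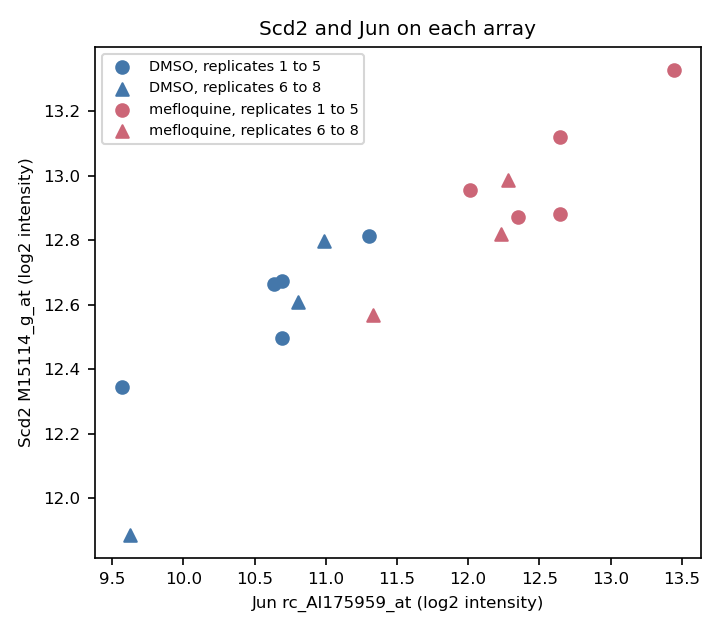
Log2 intensity of Scd2 (M15114_g_at, vertical axis) against Jun (rc_AI175959_at, horizontal axis) on the 16 arrays, coloured by treatment and shaped by replicate range. The points rise together within each treatment, with r = 0.876 within DMSO and 0.901 within mefloquine arrays. At like Jun values, DMSO control 1 (Jun 11.31, Scd2 12.81) lay above mefloquine 8 (Jun 11.33, Scd2 12.57). The former was the highest DMSO array for both genes and the latter the lowest mefloquine array for both. Whether both treatments share a line was not tested.

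For Scd the most similar gene was Hprt1, a purine salvage enzyme, at r = 0.868, and at 0.858 without DMSO control 3. Within replicates 1 to 5 it was 0.840 and within replicates 6 to 8 it was 0.714. The next, Wee1 and Srsf3, had 0.819 and 0.750 but were negative within replicates 6 to 8. Without DMSO control 3 the next were instead Pdia6 at 0.801 and Nme2 at 0.797, which over all arrays were at 0.441 and -0.0148. Over all 341 genes and all arrays the 95th percentile of r was 0.640 for Scd, 0.450 for Dhcr7 and 0.824 for Cyp51. For Dhcr7 the highest values were 0.633 for Hspb6, 0.591 for Hmox1 and 0.569 for Jun, of which Hspb6 was at -0.776 within replicates 6 to 8. Without DMSO control 3 these 3 genes were at 0.515, 0.420 and 0.456, and the highest were Eif4ebp1 at 0.686 and Hspa5 at 0.530. For Cyp51 the highest values were 0.949 for Hsp90b1, an endoplasmic reticulum chaperone, 0.948 for Suco and 0.936 for Map3k12, and 9 of the 341 genes were above 0.9. Without DMSO control 3 those values were 0.660, 0.688 and 0.557, with a 95th percentile of 0.560, and no gene was above 0.9. Highest then were Cyb5r1 at 0.712 and Zfp706 at 0.693. Within replicates 6 to 8, which do not hold that array, Hsp90b1, Suco and Map3k12 were at 0.783, 0.806 and 0.901. The count above 0.9 over all arrays thus depended on DMSO control 3.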

How the data were processed

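Total RNA (10 µg per chip, extracted with RNA STAT 60) from 16 samples was hybridised to Affymetrix rat arrays, per the labels. The authors deposited linear intensities after standard chip scaling with no other transformation, as the labels state. Scanner software is not given in the sources used here, nor is the target intensity. Of all values 26.9% were at or below 0. The table has 1031 probe sets, 59 of them controls. Symbols came from the platform annotation, where 821 gene probe sets had 1 symbol, 38 several and 113 none. The 4 members were all found in the RefSeq gene and promoter tables (GRCr8).

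Values below the 25th percentile of all positive values (426.5) were raised to it and log2 was taken. Probe sets above this floor on at least 8 of 16 arrays were tested (545), and this set was kept when arrays were left out. Treatment alone was fitted with lmFit and eBayes of limma 3.58.1 (R 4.3.3), with Benjamini-Hochberg adjustment over all tested probe sets at 0.05. Correlations were tested with 100000 permutations, or all of them for 6 arrays, two-sided (numpy 2.4.6 in Python 3.11.15), and figures drawn with matplotlib 3.10.9. The fit was tested on simulated data. Precision is limited by the number of arrays, 8 per group.

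Groups and replicate numbers came from sample titles. The members, lists, replicate ranges and alternatives were chosen with earlier results of these data known. The named genes were the member probe sets, tested genes of the lipid lists, and for each member the 3 genes with the highest Pearson r, over all arrays and without DMSO control 3. The AP-1 motif, and the settings for Scd2 with Jun, were added after that likeness was seen. Other scalings, floors, filters, weights, blocks and left-out arrays were tried as alternatives.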

Additional observations from a re-analysis of the deposited data

Results flagged for a closer look

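Within each group of 8 arrays, Dixon's test at the 95% level set the gap next to the highest and the lowest log2 value of each tested member probe set against the group's range. Such a test marks about 1 in 20 groups by chance alone. Of the 16 member groups, 3 had a value that stood apart (18.8%), all of Cyp51. Over all tested probe sets 158 of 1090 groups did (14.5%), 116 of them through DMSO control 3, so the members' share was near that of the whole array. That DMSO control 3 was low for Cyp51 was known when the genes were chosen, and groups share arrays and transcripts, so the count supports nothing about Cyp51. DMSO control 3 was low for rc_AA997614_s_at, at 9.333 where the other DMSO arrays ran from 11.23 to 11.76. It was also low for rc_AA963449_s_at, at 9.48 where the others ran from 9.97 to 10.17. For the same probe set mefloquine 8 was low, at 9.128 where the other mefloquine arrays ran from 9.83 to 10.32. DMSO control 3 had the highest 3' over 5' ratios of all arrays for beta-actin and GAPDH, at 21.3 and 4.62, and mefloquine 8 had a beta-actin ratio of 2.58; the part of RNA quality in these values was not tested.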

How the results depend on the processing

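No member probe set and no listed lipid gene passed limma's adjusted test in any alternative run. Scd2, both Dhcr7 probe sets, Cyp51 AB004096_at and Cyp51 U17697_s_at kept their direction in all alternatives run for them, which for Dhcr7 AB016800_at left out the floor at the 40th percentile and the filter on all 16 arrays, where it was not tested. The adjusted p of Scd2 ranged from 0.288 to 0.892. The Scd difference turned with the 3' over 5' ratio of GAPDH in the model (-0.00067) and ran from -0.012 to 0.26 with 1 array left out. Cyp51 rc_AA963449_s_at turned with median scaling (-0.0017), array weights (-0.027), replicates 6 to 8 alone (-0.19), without DMSO control 3 and mefloquine 1 and 2 (-0.11) and with the GAPDH ratio (-0.059), and ran from -0.048 to 0.16 with 1 array left out. Cyp51 rc_AA997614_s_at turned in the same settings other than median scaling (-0.072, -0.093, -0.080 and -0.12), and ran from -0.12 to 0.22. The cause was not tested.

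The count of called probe sets was 4 with quantile normalization or a floor at the 10th or 40th percentile, 3 with all 16 arrays above the floor, 1 in replicates 6 to 8 alone and 4 to 8 with 1 array left out. For the replicate ranges, Scd ran from 0.63 to 0.85 with 1 array left out and was 0.57 within DMSO and 0.87 within mefloquine arrays; Cyp51 U17697_s_at ran from -1.07 to -0.86 and was -1.16 and -0.80. Cyp51 rc_AA963449_s_at turned within DMSO arrays (0.14; -0.11 to 0.15 with 1 array left out) and rc_AA997614_s_at within mefloquine arrays (-0.14; -0.17 to 0.17). With the replicate number as a block, 8 probe sets passed, and Scd2 kept its 0.41 (limma adjusted p = 0.288). Pairing was to be accepted only if all 8 same-numbered pairs of arrays correlated above 0.1 in their deviations; 7 did, up to 0.593, and 1 was at 0.0569. The numbers were therefore not taken as pairs, though most pairs deviated together, and 2 of 8 correlated best with their own number.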

Other observations

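Fatty acid breakdown, the pathway opposite to fatty acid synthesis, had 7 of its 17 listed genes named on the array and 3 tested. Hadha, the alpha subunit of the mitochondrial trifunctional protein, was at 3831 ± 450 in DMSO cells and 3619 ± 563 in mefloquine cells by D16478_g_at (SD, n = 8 each). On the log2 scale this was -0.09 ± 0.12 (SE), and by its other probe set, D16478_at, -0.15 ± 0.30. Decr1, which reduces unsaturated intermediates of the pathway, differed by 0.11 ± 0.23 by D00569_g_at and by 0.23 ± 0.19 by D00569_at. Acadl, the long-chain acyl-CoA dehydrogenase, differed by -0.15 ± 0.24. None of these passed limma's test (adjusted p = 0.982 for each).

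Cyp7a1 and Cyp27a1, which turn cholesterol into bile acids, were above the floor on 0 of 16 arrays.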
